A study of Homo sapiens with 12 samples.

Results

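The genes described here form the amiloride-sensitive epithelial sodium channel and its corticoid control: the 4 channel subunit genes SCNN1A, SCNN1B, SCNN1G and SCNN1D, the kinase gene SGK1, its substrate NEDD4L, the corticoid receptor genes NR3C1 and NR3C2, and TSC22D3 and FKBP5, which glucocorticoids induce in many tissues. The members were picked by name, and all 10 were found by their Ensembl identifiers among the 12584 genes of the count table. SGK1, SCNN1B and SCNN1G were already known from these libraries to be higher in HOXC6 cells, so for every member the values of HOXC6 against empty vector are a description and carry no test.

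RNA-seq was done on A549 and PC9, established human lung adenocarcinoma lines, in 4 groups of 3 libraries. A549-HOXC6 and PC9-HOXC6 cells carried a lentiviral vector (pCDH-HOXC6) that expresses the homeobox transcription factor HOXC6, and A549-NEO and PC9-NEO cells carried the empty vector (pCDH-NEO). All 4 groups had therefore been through infection and neomycin selection, and no parental cells are among the 12 libraries. The methods name RPMI medium for A549 and DMEM for PC9, so line and medium cannot be told apart, and no source used here names an added corticosteroid. HOXC6 itself was not analysed here, and the transgene therefore gives no check of the labels.

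The totals ran from 1212053 to 3286577 counts over the genes of the table, with the lowest in A549-HOXC6 replicate 2, and 3 counts, taken as the floor of detection, equalled 0.915 to 2.57 CPM, a count divided by the size of its library. Replicates of a group differed by more than counting noise (chi-square per degree of freedom 1.58 to 4.27 over 12 pairs). The methods call the 3 replicates independent, but neither they nor the labels say whether these were separate cultures. Tests therefore measure the spread between these libraries, which may be technical. Of the epithelial markers measured, KRT18, CDH1 and ELF3 were abundant in both lines, whereas EPCAM had medians of 5.38 CPM in A549 and 175 CPM in PC9, and ESRP1 had medians of 0.182 and 230 CPM. The 2 leukocyte and 2 endothelial markers reached 6 counts at most, and of the 6 fibroblast markers COL1A1 alone was above this range.

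The epithelial sodium channel is the apical pore through which lung, kidney and colon epithelia absorb sodium, and in the airspaces it drives fluid clearance. A full channel needs the pore-forming alpha subunit (SCNN1A) with beta (SCNN1B) and gamma (SCNN1G), and the delta subunit (SCNN1D) can take the place of alpha. NEDD4L is the ubiquitin ligase that removes the channel from the membrane, the kinase SGK1 phosphorylates NEDD4L and so keeps channels at the surface, and SGK1 and SCNN1A are textbook targets of the glucocorticoid (NR3C1) and mineralocorticoid (NR3C2) receptors.

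In GRCh37, SCNN1G and SCNN1B are neighbours on the forward strand of chromosome 16, SCNN1G from 23194066 to 23228204 and SCNN1B from 23289552 to 23392615, with 61347 bp between them. SCNN1A lies on the reverse strand of chromosome 12 from 6456009 to 6486896 and SCNN1D on the forward strand of chromosome 1 from 1215816 to 1227409. SGK1 (134490386 to 134639250) and FKBP5 (35541362 to 35696360) are both on the reverse strand of chromosome 6. NEDD4L is on chromosome 18 (55711458 to 56068772), NR3C1 on chromosome 5 (142657496 to 142815077), NR3C2 on chromosome 4 (148999913 to 149365850) and TSC22D3 on chromosome X (106956451 to 107020572). Exons of SCNN1A, SCNN1G, NEDD4L and TSC22D3 share 422, 171, 1001 and 71 bp with exons of a gene on the other strand, and since the strand setting of the counting is not given in the sources used here, reads from those stretches cannot be assigned with certainty.

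Sequences upstream of annotated starts were taken from RefSeq (GRCh38.p14), whose table held 7 of the 10 members with 26 starts. SCNN1B and SGK1 are shown, as the members with the largest HOXC6 differences in A549 among those 7, and each run is the 250 bases that end just before the start, with CG dinucleotides in capitals. The SCNN1B run is chr16:23302052-23302301 on the forward strand, and the 3 SGK1 runs are chr6:134318113-134318362, chr6:134177862-134178111 and chr6:134174867-134175116 on the reverse strand, numbered from the outermost start.
SCNN1B: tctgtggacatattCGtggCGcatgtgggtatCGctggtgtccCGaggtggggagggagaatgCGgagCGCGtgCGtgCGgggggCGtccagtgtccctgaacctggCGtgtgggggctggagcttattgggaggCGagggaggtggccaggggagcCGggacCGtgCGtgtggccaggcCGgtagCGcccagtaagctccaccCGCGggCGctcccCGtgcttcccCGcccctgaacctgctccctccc
SGK1 start 1: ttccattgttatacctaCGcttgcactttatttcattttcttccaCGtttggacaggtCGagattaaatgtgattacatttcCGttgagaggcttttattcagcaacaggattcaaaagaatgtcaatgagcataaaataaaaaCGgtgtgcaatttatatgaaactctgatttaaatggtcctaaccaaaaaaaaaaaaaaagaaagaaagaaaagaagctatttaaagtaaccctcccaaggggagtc
SGK1 start 2: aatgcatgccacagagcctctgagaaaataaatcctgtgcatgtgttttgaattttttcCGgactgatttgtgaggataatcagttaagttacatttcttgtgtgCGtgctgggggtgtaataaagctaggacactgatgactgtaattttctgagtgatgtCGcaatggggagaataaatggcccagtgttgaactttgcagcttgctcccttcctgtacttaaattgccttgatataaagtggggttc
SGK1 start 3: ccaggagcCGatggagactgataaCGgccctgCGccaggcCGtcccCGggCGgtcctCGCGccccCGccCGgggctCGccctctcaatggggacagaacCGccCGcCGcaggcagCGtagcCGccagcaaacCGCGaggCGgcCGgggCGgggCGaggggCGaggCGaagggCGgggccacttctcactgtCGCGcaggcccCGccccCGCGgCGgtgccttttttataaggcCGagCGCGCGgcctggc

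The run before SCNN1B held 22 CG dinucleotides at a GC content of 70.0%, and that before SGK1 start 3 held 35 at 76.0%, against a median of 11 (quartiles 3 and 23) and 58.0% (46.4% and 68.0%) over the 35116 runs of the table. The first and second SGK1 starts were poorer, with 5 and 3 CG dinucleotides and GC contents of 33.6% and 41.6%, so SGK1 has both kinds of start. Gene counts do not tell which start was in use. The letters AGAACA, the half-site of the glucocorticoid receptor element, stood on either strand in 12.4% of all runs and in 1 of the 26 of the members, NEDD4L start 1, where they lay 78 bases before the start. The homeodomain core TAATTA stood in 4.35% of all runs and in 1 of the members', at NR3C1 start 2, 190 bases before the start. The full receptor palindrome, 2 such half-sites facing each other across 3 bases, stood in 1 of the 35116 runs and the PBX-HOX letters TGATTNAT in 2.48%, and no member's run held either. These are matches of letters in a 250-base window and say nothing of binding.

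Transcript levels are given as CPM after TMM scaling over 12 libraries, as mean ± SD of n = 3 libraries. Levels of different genes are compared as CPM per kb of the canonical transcript. A gene counts as called where it passed an adjusted p under 0.05 in edgeR's quasi-likelihood test over all genes and a log2 fold change beyond 1. In bulk RNA, fewer cells with a transcript and less of it per cell cannot be told apart.

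SCNN1A, the pore-forming subunit, separated the lines. Its level was 13.9, 20.1 and 13.4 CPM in the A549-NEO libraries, 21.1, 22.3 and 24.6 CPM in A549-HOXC6, 496, 497 and 510 CPM in PC9-NEO and 543, 547 and 569 CPM in PC9-HOXC6. Every PC9 library lay far above every A549 library, whichever the vector. In empty vector cells SCNN1A was 31.0-fold lower in A549 (log2 fold change -4.95 ± 0.11 (SE), n = 3 against 3, adjusted p = 6.36e-31 by edgeR), and in HOXC6 cells 24.7-fold lower (-4.63 ± 0.13, adjusted p = 6.79e-29 by edgeR). Within a line the HOXC6 libraries all lay above the NEO libraries, by 0.48 ± 0.23 (log2, SE) in A549 and 0.15 ± 0.06 in PC9. After a correction of each library for GC content and transcript length the differences were 0.19 and -0.08, so the direction in PC9 turned.

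SCNN1B, the beta subunit, was scarce in A549-NEO and abundant in A549-HOXC6. Its level was 5.20, 6.03 and 2.36 CPM in A549-NEO and 50.6, 49.7 and 40.7 CPM in A549-HOXC6, where each library carried at least 58 counts. In PC9 it was 5.41, 7.05 and 7.64 CPM with NEO and 7.72, 11.8 and 14.6 CPM with HOXC6. The groups did not overlap in either line, but in PC9 the lowest HOXC6 library lay just above the highest NEO library. The log2 difference was 3.31 ± 0.26 (SE) in A549 and 0.79 ± 0.33 in PC9, and the difference between the lines in this change was 2.56 ± 0.45. Without PC9-HOXC6 replicate 1 the PC9 value was 1.01, past both thresholds, and without PC9-HOXC6 replicate 3, the highest library, it was 0.49 ± 0.41.

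SCNN1G, the gamma subunit, was the scarcest of the 4. A549-NEO libraries held 1, 2 and 2 counts of it (0.347, 0.804 and 0.786 CPM), under the floor, and A549-HOXC6 libraries 27, 6 and 20 counts (9.83, 5.14 and 10.7 CPM). PC9-NEO libraries held 7, 4 and 4 counts (3.78, 2.01 and 1.70 CPM) and PC9-HOXC6 libraries 13, 10 and 19 (6.27, 7.38 and 5.80 CPM). The summed counts, 53 against 5 in A549, gave a ratio of 14.5 after scaling (exact 95% interval 5.84 to 46.5), and those of PC9, 42 against 15, gave 2.59 (1.41 to 5.02). These intervals cover counting error only, over reads pooled from the 3 libraries of a group. They are no test, since SCNN1G was picked with its rise known. The fitted log2 differences were 3.68 ± 0.57 (SE) and 1.36 ± 0.47, the first of which depends on the prior count of the fit, and they differed between the lines by 2.36 ± 0.82. In PC9 the call was lost with DESeq2, after the GC and length correction (1.18) and when any library other than PC9-NEO replicate 1 was left out (1.12 to 1.75 over the 6 omissions).

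SCNN1D, the delta subunit, had overlapping groups in A549 and separate ones in PC9. Its level was 12.2 ± 2.42 CPM in A549-NEO and 11.9 ± 1.26 CPM in A549-HOXC6, with overlapping libraries and a log2 difference of -0.07 ± 0.28 (SE), which turned to 0.10 without A549-NEO replicate 3. In PC9 it was 3.24, 4.03 and 5.09 CPM with NEO (6, 8 and 12 counts) and 8.68, 7.38 and 8.24 CPM with HOXC6. These groups did not overlap, and the difference was 0.96 ± 0.38. After the GC and length correction the differences were -0.31 ± 0.28 in A549 and 0.70 ± 0.38 in PC9. Between the empty vector lines SCNN1D was higher in A549 by 1.56 ± 0.34 (log2, SE, adjusted p = 0.000119 by edgeR). In the HOXC6 libraries the line difference was 0.53 ± 0.33 (adjusted p = 0.154 by edgeR).

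**Figure D1:**
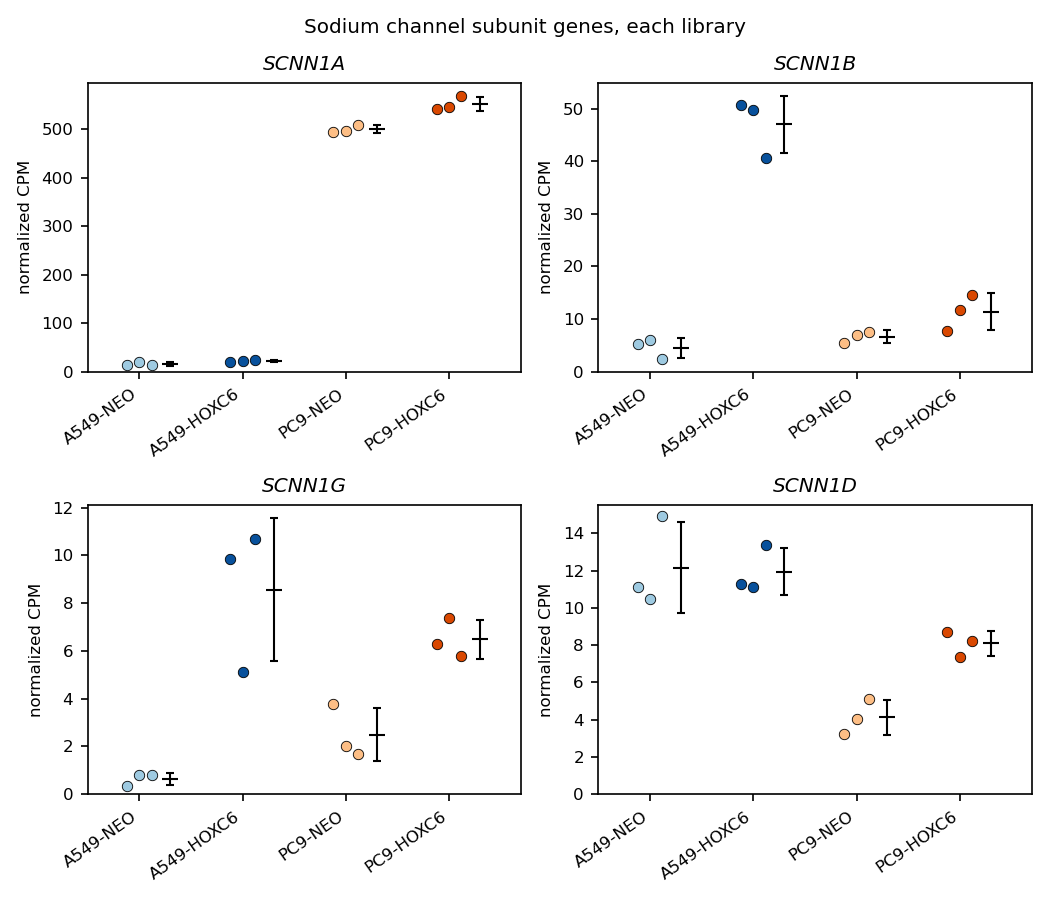
Level of the 4 channel subunit genes in each library, in normalized CPM on a linear axis that starts at 0 in each panel, by group. Points are libraries, and the bars beside them are the mean and SD of 3. SCNN1A is at 496 CPM or more in PC9 and at 24.6 CPM or less in A549, SCNN1B is highest in A549-HOXC6, and SCNN1G overlaps between the HOXC6 groups.

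Set side by side per kb of transcript, the mix of subunit transcripts differed by line and by vector. In A549-NEO the 4 genes summed to 10.9 ± 1.25 CPM per kb, of which SCNN1A made up 45.3 ± 5.42%, SCNN1D 37 ± 10.04%, SCNN1B 15.97 ± 6.10% and SCNN1G 1.68 ± 0.63%. With HOXC6 the sum was 31.9 ± 0.95 CPM per kb, and the leading share was that of SCNN1B, 57.4 ± 5.64%, with SCNN1A at 22.6 ± 2.39%, SCNN1D at 12.3 ± 1.56% and SCNN1G at 7.71 ± 2.71%. In both PC9 groups SCNN1A made up nearly all, 97.1 ± 0.22% of 163.7 ± 2.91 CPM per kb with NEO and 95.2 ± 0.53% of 184.5 ± 5.62 CPM per kb with HOXC6. Beta and gamma together were thus a minority beside alpha in PC9, at 1.60 ± 0.25% and 0.44 ± 0.20% with NEO and at 2.40 ± 0.67% and 1.01 ± 0.14% with HOXC6. The PC9 shares of SCNN1A, SCNN1G and SCNN1D did not overlap between vectors, at 96.9% to 97.4% against 94.7% to 95.7% for SCNN1A. The shares and sums carry no correction for GC content and transcript length. After that correction the log2 differences in PC9 were -0.08 (SCNN1A), 0.56 (SCNN1B), 1.18 (SCNN1G) and 0.70 (SCNN1D). These are shares of transcript, and the protein was not measured.

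SGK1, the kinase, differed between vectors in both lines. It was at 19.8, 25.3 and 23.2 CPM in A549-NEO and 97.9, 98.4 and 88.8 CPM in A549-HOXC6, and at 18.4, 16.1 and 19.9 CPM in PC9-NEO and 46.3, 53.1 and 56.4 CPM in PC9-HOXC6. No NEO library came near a HOXC6 library of its line, and the lines overlapped with the empty vector. Their log2 difference was 2.02 ± 0.15 (SE) in A549 and 1.52 ± 0.17 in PC9, 1.92 and 1.43 after the GC and length correction, and 1.92 to 2.102 and 1.44 to 1.61 with any 1 library left out. The lines differed in this change by 0.55 ± 0.24. With the empty vector the lines differed in SGK1 by 0.35 ± 0.21 (log2, SE, adjusted p = 0.126 by edgeR). In HOXC6 cells the line difference of SGK1 was 0.85 ± 0.14, that of SCNN1B 1.98 ± 0.23 and that of SCNN1G 0.49 ± 0.37, given without a test because these libraries had a part in the choice of the 3 genes.

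NEDD4L, the ligase on which SGK1 acts, did not follow SGK1. Its level was 85.0 ± 12.1 CPM in A549-NEO and 79.1 ± 2.07 CPM in A549-HOXC6, and 60.1 ± 11.8 and 54.1 ± 6.23 CPM in the PC9 groups, with overlap in both lines. The log2 differences were -0.16 ± 0.13 (SE) and -0.13 ± 0.15. Between lines NEDD4L was higher in A549 by 0.54 ± 0.13 with NEO (adjusted p = 0.000364 by edgeR) and by 0.51 ± 0.15 with HOXC6 (adjusted p = 0.00254 by edgeR), under the fold change threshold in both.

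Of the receptors, NR3C1 was the one with more than a trace of reads. The glucocorticoid receptor gene stood at 94.4, 89.6 and 98.6 CPM in A549-NEO and 88.1, 90.7 and 59.4 CPM in A549-HOXC6, where replicate 3 was the low one, and at 39.1 ± 7.19 and 33.9 ± 3.49 CPM in PC9-NEO and PC9-HOXC6. The vectors overlapped in both lines, and the log2 differences of -0.30 ± 0.14 (SE) in A549 and -0.24 ± 0.17 in PC9 became 0.13 and 0.06 after the GC and length correction. NR3C1 has the lowest GC content of the members (40.4%). Between lines it was higher in A549 by 1.30 ± 0.13 with NEO (log2, SE, adjusted p = 2.39e-11 by edgeR) and by 1.23 ± 0.17 with HOXC6 (adjusted p = 7.53e-08 by edgeR), and no A549 library overlapped a PC9 library.

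NR3C2, the mineralocorticoid receptor gene, was at or under the floor in both A549 groups, with 2, 1 and 0 counts in the empty vector libraries and 2, 1 and 2 counts in those with HOXC6. PC9-NEO libraries held 0, 6 and 6 counts and PC9-HOXC6 libraries 6, 1 and 7. It passed the filter on low counts in no comparison, and a difference in it was not detectable at this depth.

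TSC22D3 encodes GILZ, a leucine zipper protein that glucocorticoids induce. It stood at 64.9, 69.9 and 57.4 CPM in A549-NEO and 72.4, 86.5 and 100.1 CPM in A549-HOXC6, and at 34.1, 17.1 and 36.1 CPM in PC9-NEO and 60.8, 61.2 and 49.4 CPM in PC9-HOXC6. HOXC6 libraries lay above NEO libraries in both lines, by 0.37 ± 0.14 (log2, SE) in A549, or 0.07 after the GC and length correction, and by 0.94 ± 0.19 in PC9, or 0.76 after it. The PC9 value fell just short of the fold change threshold and passed it without PC9-NEO replicate 1 (1.05), PC9-NEO replicate 3 (1.15) or PC9-HOXC6 replicate 3 (1.07). Without PC9-NEO replicate 2, the low library, it was 0.68, the farthest of the 6 omissions from the value over all libraries. With the empty vector TSC22D3 was higher in A549 by 1.17 ± 0.17 (adjusted p = 1.49e-07 by edgeR), but by 0.89 without PC9-NEO replicate 2, the low library. In HOXC6 cells it was higher in A549 by 0.59 ± 0.15 (adjusted p = 0.00074 by edgeR), under the fold change threshold.

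FKBP5, a co-chaperone that lowers the affinity of the glucocorticoid receptor for hormone, had overlapping groups in both lines. Its level was 18.9 ± 2.73 CPM in A549-NEO and 23.1 ± 6.33 CPM in A549-HOXC6, with overlap, and 15.4 ± 2.35 and 21.3 ± 3.86 CPM in PC9-NEO and PC9-HOXC6, where the lowest HOXC6 library (17.4 CPM) lay under the highest NEO library (17.8 CPM). The log2 differences were 0.22 ± 0.23 (SE) and 0.46 ± 0.24. Between lines the differences were 0.36 ± 0.23 with NEO (adjusted p = 0.155 by edgeR) and 0.11 ± 0.24 with HOXC6 (adjusted p = 0.709 by edgeR), and the second turned to -0.01 without A549-HOXC6 replicate 1 and to -0.02 without PC9-HOXC6 replicate 1.

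**Figure D2:**
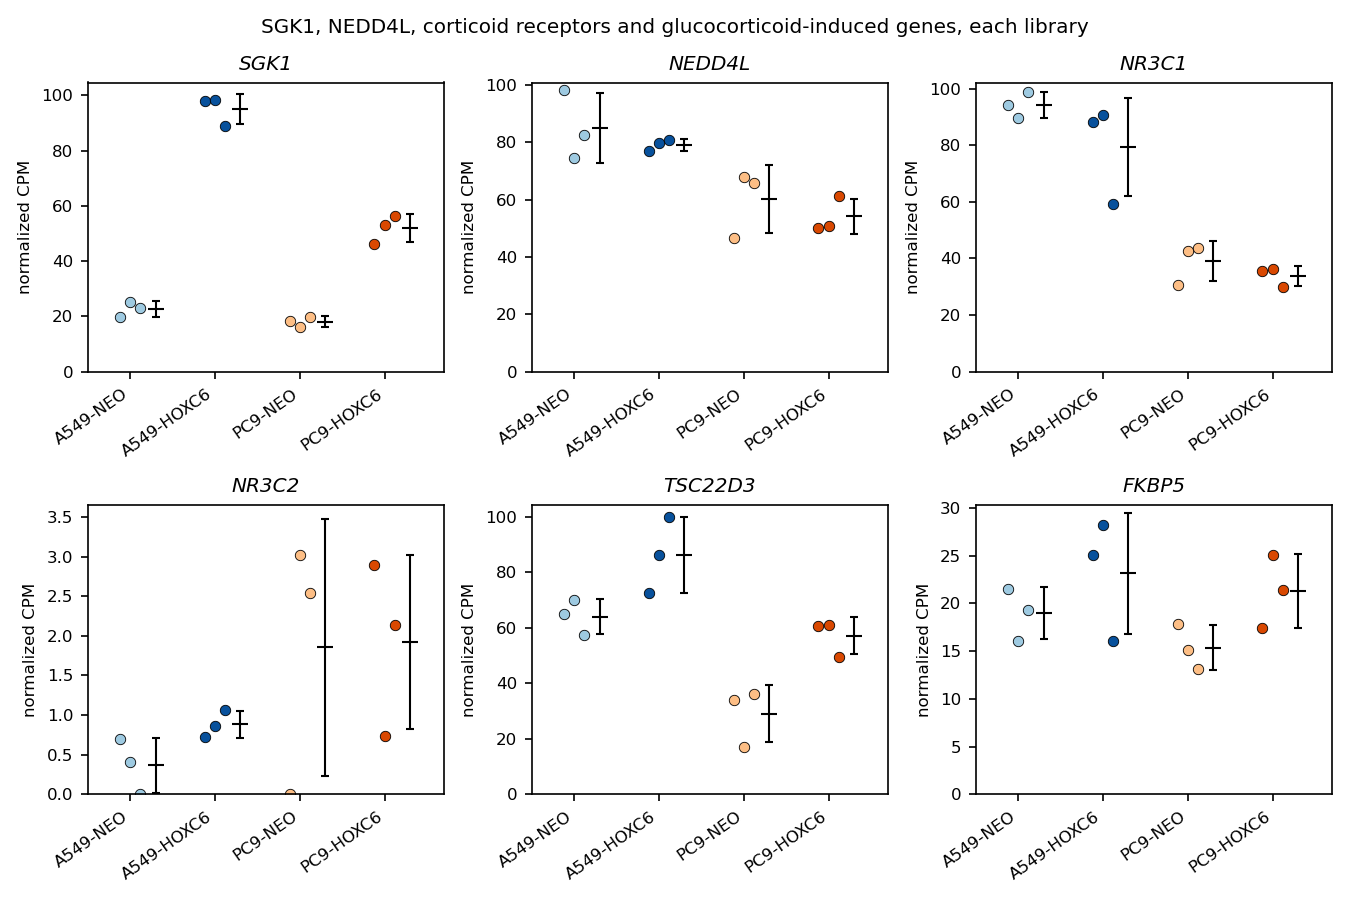
Level of SGK1, NEDD4L, the 2 receptor genes, TSC22D3 and FKBP5 in each library, in normalized CPM on linear axes that start at 0, by group. Points are libraries, and the bars are the mean and SD of 3. SGK1 is higher in all HOXC6 libraries than in the NEO libraries of the same line, NEDD4L overlaps between vectors, and NR3C2 stays at 3.02 CPM or less.

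Within each group the members spanned a wide range per kb of transcript. In A549-NEO the order from the top was TSC22D3 (28.2 ± 2.78 CPM per kb), NR3C1 (13.9 ± 0.67), NEDD4L (9.85 ± 1.40) and SGK1 (7.01 ± 0.86), followed by FKBP5, SCNN1A and SCNN1D, whose neighbouring libraries overlapped, then SCNN1B, and SCNN1G and NR3C2, which also overlapped. In A549-HOXC6 SGK1 (29.3 ± 1.66) and SCNN1B (18.4 ± 2.14) stood next to TSC22D3 (38.0 ± 6.09), ahead of NR3C1 (11.7 ± 2.56) and NEDD4L (9.16 ± 0.24), which overlapped. In PC9-NEO SCNN1A led with 159.0 ± 2.50 CPM per kb, and TSC22D3, NEDD4L, NR3C1 and SGK1, between 12.8 ± 4.59 and 5.59 ± 0.59, each overlapped the next. In PC9-HOXC6 SCNN1A (175.5 ± 4.54), TSC22D3 (25.2 ± 2.95) and SGK1 (16.01 ± 1.59) were apart from each other and from the rest, while NEDD4L, FKBP5 and NR3C1 overlapped.

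Counted together, 9 members were tested for HOXC6 against NEO in each line, NR3C2 being left out by the filter. In A549, SCNN1B, SCNN1G and SGK1 were called higher, where 1.7% of 8771 genes were called higher and 5.51% lower. In PC9, SCNN1G and SGK1 were called higher, where 0.962% of 8419 genes were called higher and 3.56% lower. No member was called lower by edgeR in either line, nor by DESeq2. At an unadjusted p under 0.05 the lower ones numbered 1 in A549 and 0 in PC9, with the share of all genes at that threshold not counted. The HOXC6 libraries all lay above the NEO libraries for 5 of the 9 in A549 (26.8% of all genes) and 6 of the 9 in PC9 (19.5%). The median log2 difference of the 9 was 0.37 in A549 and 0.79 in PC9, against about 0 over all genes. Since the members were chosen with these contrasts known, the counts are a description only.

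Across all genes tested, the HOXC6 difference rose with the GC content of the transcript (Spearman's rho 0.53 in A549 and 0.53 in PC9, across genes, which are not independent replicates). The line comparisons had no such trend, with -0.01 for NEO and 0.05 for HOXC6 libraries. The channel subunit genes have GC contents of 57.4% (SCNN1A), 58.1% (SCNN1B), 52.1% (SCNN1G) and 65.0% (SCNN1D), and SGK1 has 46.9%. With the correction for both GC and length, SCNN1B differed by 3.01 (log2) in A549 and by 0.56 in PC9, and SCNN1G by 3.44 in A549. The cause of the trend was not tested.

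**Figure D3:**
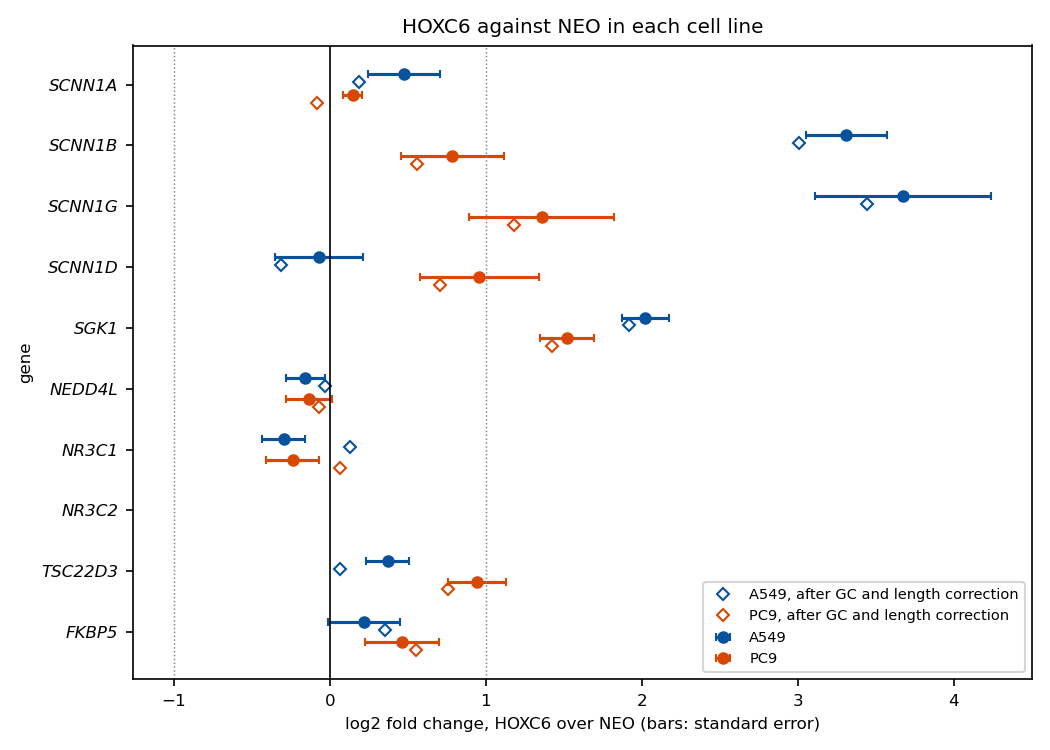
Log2 fold change of each member, HOXC6 over NEO, in A549 and in PC9, from the fit of each line. Bars are standard errors, and open diamonds are the values after the GC and length correction. The dotted lines mark a log2 fold change of 1 in either direction, and NR3C2 has no point because it did not pass the filter. SGK1 lies past 1 in both lines, and SCNN1B is at 3.31 in A549 and 0.79 in PC9. NEDD4L and NR3C1 lie just under 0 before the correction, and the diamonds of NR3C1 are at 0.13 in A549 and 0.06 in PC9.

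Between the lines, which the choice of members did not use as a contrast, 8 members were tested in empty vector cells, SCNN1G and NR3C2 being left out by the filter. SCNN1D, NR3C1 and TSC22D3 were called higher in A549, where 19.6% of 9076 genes were, and SCNN1A was called lower, where 16.4% were. These are 4 of 8 members, against 36% of all genes called in one direction or the other. In HOXC6 cells 9 members passed the filter. NR3C1 was called higher in A549 and SCNN1A lower, and SCNN1B also lay past both thresholds there, which is a description because the HOXC6 libraries had a part in its choice. Of all 8828 genes, 18% were called higher in A549 and 15.9% lower, and nothing is read from the members' count beside these shares. By adjusted p alone, 4 members were higher and 1 lower in A549 with NEO (36.9% and 35.7% of all genes). With HOXC6, NEDD4L, NR3C1 and TSC22D3 were higher and SCNN1A lower by adjusted p alone (33.7% and 32.9% of all genes), leaving aside SCNN1B and SGK1 for the reason given. The empty vector libraries also served as the controls above, so the line values of SCNN1B and SGK1 in them are not independent of the choice.

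**Figure D4:**
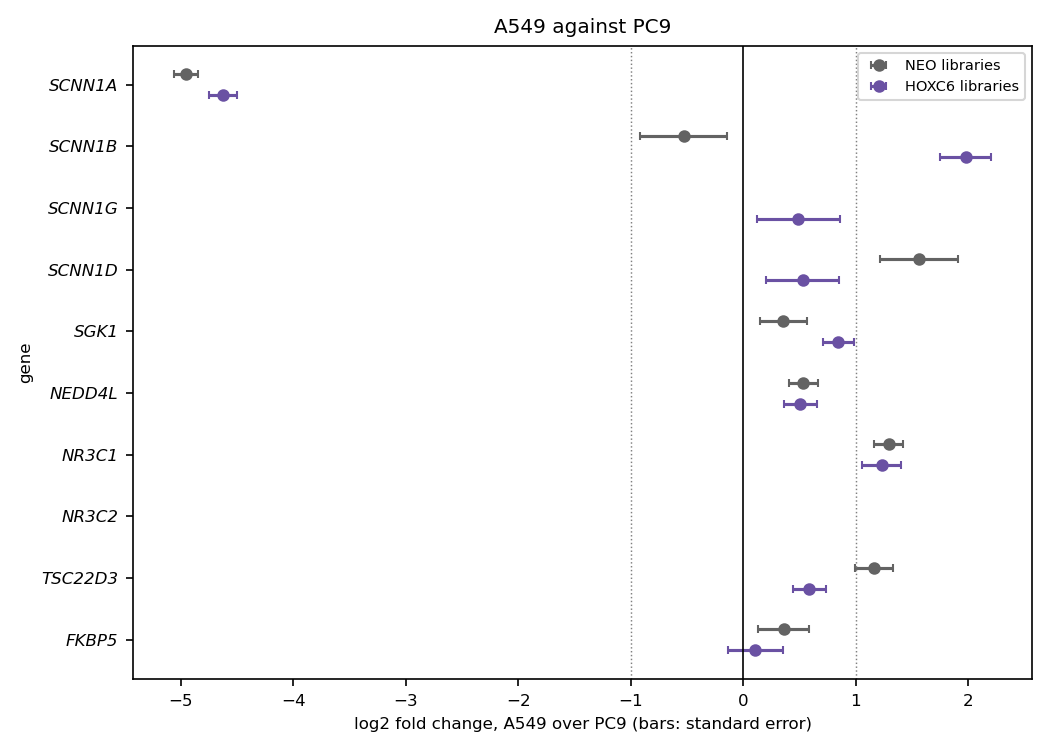
Log2 fold change of each member, A549 over PC9, in the NEO libraries and in the HOXC6 libraries. Bars are standard errors and the dotted lines mark 1 in either direction; NR3C2, and SCNN1G in the NEO libraries, have no point because they did not pass the filter. SCNN1A is near -5 in both, NR3C1 is past 1 in both, and SCNN1B is at -0.53 with NEO and 1.98 with HOXC6.

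The neighbourhood of SCNN1G and SCNN1B was examined because they lie side by side on chromosome 16. Of the other genes within 1 Mb, 17 were in the table and 13 were tested. None was called by edgeR or by DESeq2 in either line. Of all genes, 1.7% were called higher and 5.51% lower in A549, and 0.962% and 3.56% in PC9. Nothing is read from the neighbours' count beside these shares. At an unadjusted p under 0.05, 3 of the 13 neighbours were higher and 2 lower in A549, and 3 and 1 in PC9. The share of all genes at that threshold was not counted. The log2 differences of the neighbours ran from -0.65 to 0.84 (median 0.13) in A549 and from -0.83 to 0.63 (median 0.11) in PC9. COG7, which encodes a Golgi tethering subunit, was at 0.26 in A549 and 0.02 in PC9, and USP31, which encodes a deubiquitinase, at 0.43 and 0.04. The values of 3.31 and 3.68 for the channel genes in A549 lay outside the range of the 13 around them. Both genes were picked with their rise known, so this is a description only.

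Genes with profiles most like those of 4 members were taken from 8870 genes by the smallest root mean square difference of centred log2 CPM over the 12 libraries. For SGK1 they were MALL (0.33), TIMP4 (0.43) and FN1 (0.48), where SGK1 itself varied by 0.94 about its mean. MALL, a proteolipid of membrane rafts, stood at 25.9 and 66.5 CPM in A549-NEO and A549-HOXC6 and 17.1 and 34.9 CPM in the PC9 groups, and FN1, the extracellular matrix glycoprotein fibronectin, at 2490, 4668, 1735 and 3031 CPM in the same order. For SCNN1A they were ARHGEF5 (0.23), ADORA1 (0.23) and WFDC3 (0.25), with group means of 2.23 CPM or less in A549 and of 19.2 to 69.3 CPM in PC9. Those A549 levels lie at or near the floor of detection, where log2 CPM depends on the prior count, so the closeness there is uncertain. The profile of SCNN1B had no match as close: LMO4 (0.70), CHAC1 (0.73) and FSTL4 (0.74) were nearest, against its own variation of 1.25. CHAC1, a glutathione-degrading enzyme of the stress response, stood at 12.6 and 85.0 CPM in A549 and 11.5 and 8.89 CPM in PC9. Nearest to SCNN1G, itself at 1.06, were RASL11A (0.52), SYDE1 (0.60) and PDZK1IP1 (0.62).

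The rest of the pathway was followed in 4 lists of 114 genes, of which 97 were in the table: 28 of sodium transport and channel control, 23 of the SGK1 kinase pathway, 22 of corticoid receptor handling (chaperones, steroid enzymes, an importin and transcriptional coregulators) and 24 that glucocorticoids induce. The lists were chosen with earlier results of these data known, so the adjusted p of a list gene is no independent test. In A549, 86 of the 97 were tested. No list gene was called higher, by edgeR or by DESeq2, and 5 were called lower. At an unadjusted p under 0.05, 22 were higher there, but the share of all genes at that threshold was not counted. In PC9, 85 were tested, and 3 were called higher and 3 lower. By adjusted p alone, 21 list genes were higher and 23 lower in A549, where 18.9% and 20.7% of all genes were, and 20 were higher and 13 lower in PC9, where 13.3% and 14.2% were. The shares past both thresholds, 1.7% higher and 5.51% lower in A549 and 0.962% and 3.56% in PC9 over all genes, are the background for the calls of the lists. The median log2 difference over all list genes was -0.05 in A549 and 0.01 in PC9, close to that of all genes.

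In the SGK1 kinase pathway, 2 of 22 genes tested in A549 and 2 of 20 in PC9 were called lower, and they were RICTOR and PIK3CA in both lines. RICTOR encodes the defining subunit of the mTOR complex that activates SGK1, and its level was 51.4 ± 7.74 CPM in A549-NEO and 19.2 ± 5.01 CPM in A549-HOXC6 (log2 fold change -1.47 ± 0.20 (SE), n = 3 against 3, adjusted p = 1.47e-06 by edgeR), and 54.2 ± 2.20 and 22.97 ± 2.27 CPM in PC9 (-1.23 ± 0.16, adjusted p = 7.82e-07 by edgeR). PIK3CA, the catalytic subunit of the lipid kinase upstream of it, fell by 1.03 ± 0.31 on the log2 scale in A549 (adjusted p = 0.00967 by edgeR) and by 1.02 ± 0.20 in PC9 (adjusted p = 0.000257 by edgeR). The PIK3CA call was lost in 3 of the 6 omissions of a library in each line, namely A549-NEO replicates 1 and 3 and A549-HOXC6 replicate 2, and PC9-NEO replicates 1 and 2 and PC9-HOXC6 replicate 3 (-1.31 to -0.81 and -1.26 to -0.88 over all omissions). One gene of this list was called higher, in PC9: NDRG1, a protein that SGK1 phosphorylates and that also responds to hypoxia, rose from 511.1 ± 11.9 to 1413 ± 29.4 CPM (1.47 ± 0.06, adjusted p = 1.28e-17 by edgeR).

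Among sodium transport genes, NEDD4, the ubiquitin ligase related to NEDD4L, was the 1 of 21 called in A549, at 95.3 ± 9.17 CPM with NEO and 46.7 ± 6.88 CPM with HOXC6 (log2 fold change -1.05 ± 0.14 (SE), adjusted p = 1.08e-06 by edgeR). Its call was lost without A549-NEO replicate 1 or A549-HOXC6 replicate 3 (-1.21 to -0.93 over all omissions). AQP3, an aquaglyceroporin, was the 1 of 27 called in PC9, at 23.8 ± 2.48 and 48.4 ± 7.16 CPM (1.02 ± 0.17, adjusted p = 3.67e-05 by edgeR), a call lost without PC9-NEO replicate 3 or PC9-HOXC6 replicate 2 (0.95 to 1.13 over all omissions).

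Receptor handling had 1 of 21 genes called in each line, both lower. HSP90AA1, the chaperone that holds corticoid receptors ready for ligand, went from 659.4 ± 43.8 to 308.4 ± 39.5 CPM in A549 (log2 fold change -1.14 ± 0.09 (SE), adjusted p = 2.39e-10 by edgeR). Its value in PC9 was -0.98 ± 0.06, just short of the fold change threshold. CHORDC1, a co-chaperone of HSP90, went from 30.2 ± 2.39 to 14.3 ± 0.69 CPM in PC9 (-1.07 ± 0.21, adjusted p = 0.000242 by edgeR).

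Of the glucocorticoid-induced genes beyond the members, 1 of 22 in A549 and 1 of 17 in PC9 was called, in opposite directions. BIRC3, an inhibitor of apoptosis, fell from 102.8 ± 15.2 to 37.1 ± 8.34 CPM in A549 (log2 fold change -1.49 ± 0.16 (SE), adjusted p = 2.54e-08 by edgeR). ANGPTL4, a secreted inhibitor of lipoprotein lipase, rose from 22.7 ± 4.20 to 48.9 ± 5.66 CPM in PC9 (1.12 ± 0.17, adjusted p = 1.19e-05 by edgeR). The list medians were -0.20 in A549 and 0.16 in PC9. After the GC and length correction BIRC3 was at -0.83 ± 0.14 and no longer called in A549, while GLUL, which encodes glutamine synthetase, at 1.13 ± 0.21 and CDC42EP3, an effector of the GTPase CDC42, at 1.03 ± 0.13 were called higher, also with the replicate block, from 0.97 and 0.77 before it. The direction of this list's calls in A549 thus turned with the correction, and both genes were named after their values were seen.

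The list genes called lower have transcripts of 34.3% to 41.6% GC and those called higher 54.9% to 63.3%, and after the GC and length correction NDRG1 in PC9 (1.26 ± 0.05) was the only one of the 11 calls that still passed both thresholds. RICTOR was then at -0.78 ± 0.18 in A549 and -0.66 ± 0.16 in PC9, and HSP90AA1 in A549 at -0.90 ± 0.07. PIK3CA was at -0.31 ± 0.32 in A549, within 1 SE of 0, and at -0.40 ± 0.20 in PC9. NEDD4 in A549 was at -0.51 ± 0.13 and CHORDC1 in PC9 at -0.46 ± 0.21, and ANGPTL4 and AQP3 in PC9 were at 0.87 ± 0.17 and 0.82 ± 0.17. How many of all called genes keep their call after it was not counted, so the loss is not read as particular to the lists. The part of GC content in these calls was not tested beyond that correction.

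**Figure D5:**
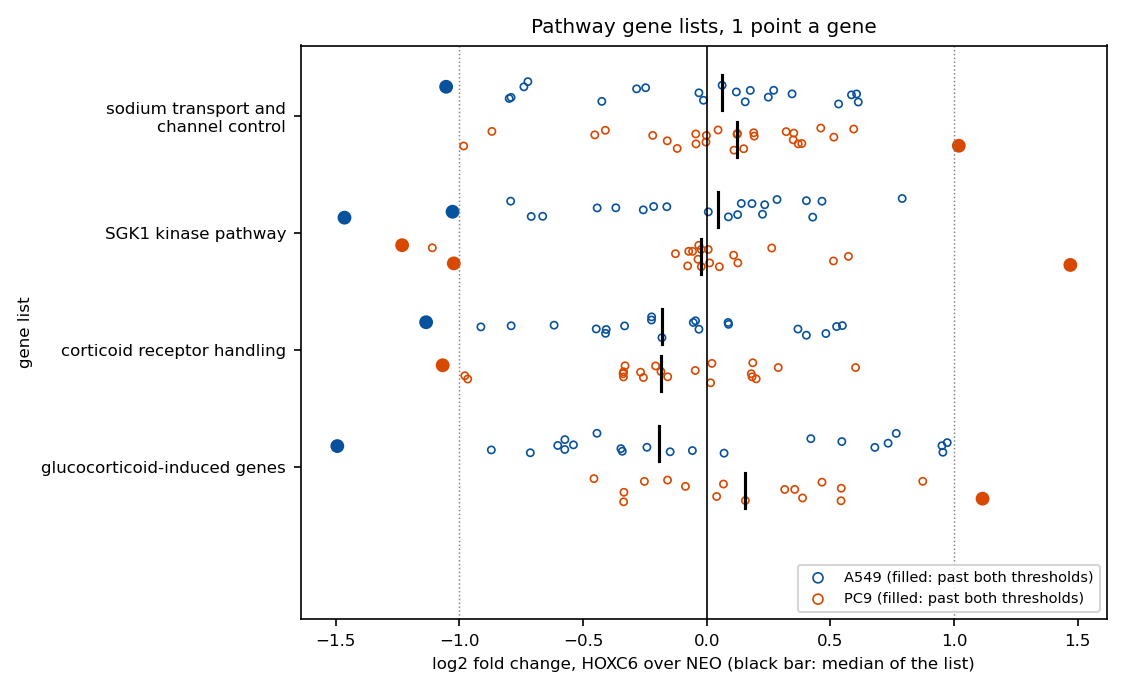
Log2 fold change of HOXC6 over NEO for the tested genes of the 4 pathway lists, 1 point a gene, in A549 and in PC9. Filled points passed both thresholds, black bars are list medians and the dotted lines mark 1 in either direction. The medians lie between -0.20 and 0.16, and the filled points are 5 in A549, all lower, and 6 in PC9, 3 of them higher.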

How the data were processed

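Poly(A) RNA of 12 libraries was sequenced as paired reads, which the authors aligned with HISAT2 to GRCh37.p13 and counted per gene with HTSeq (2.1.0 and 0.9.1 in the submitters' processing notes). The deposited values are raw counts per gene, 1 column per library, neither normalized nor pooled. The strand setting and annotation release are not given in the sources used here. One incomplete last entry was left out, and 121 of the 12584 genes were not in the GENCODE annotation used for names and positions. The authors' comparisons are not in the table.

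Groups and replicate numbers were taken from the library labels. Members and pathway lists were chosen with earlier results of these data known, and so were the tests. For each comparison of 6 libraries, genes were filtered with filterByExpr, scaled by TMM and tested in edgeR (4.0.16, under R 4.3.3) by the quasi-likelihood test, adjusted by Benjamini-Hochberg over all genes tested. Differences between lines came from an interaction term over 12 libraries. The F statistic of each log2 fold change gave its standard error. From each list and line, at most the 4 called genes with the largest change were named, and for similar profiles the 3 nearest of the genes with a mean of at least 10 counts per library (prior count 2). The window around SCNN1G and SCNN1B was set after the data had been seen.

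Alternatives were DESeq2 (1.42.0), 1 model over 12 libraries, RLE size factors, library size only, no filter, at least 10 counts in every library, no fold change criterion, the replicate number as a block, smooth correction of each library for GC content and length (mgcv 1.9.3), the block together with this correction, and omission of 1 library at a time. The tests were first tested on simulated counts. Gene positions are GRCh37 and upstream sequences GRCh38.p14, with no conversion between them. Reads were not analysed here.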

Additional observations from a re-analysis of the deposited data

Results flagged for a closer look

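NDRG1, which encodes a substrate of SGK1, is listed because its HOXC6 change differed between the lines in a test of the difference itself. It rose by 1.47 ± 0.06 (log2, SE, n = 3 against 3) in PC9, while in A549 it was at 378.9 ± 8.94 CPM with NEO and 414.6 ± 29.6 CPM with HOXC6, a difference of 0.09 ± 0.08. The change in A549 minus that in PC9 was -1.335 ± 0.10 (SE; adjusted p = 1.18e-12 for the edgeR interaction over 12 libraries), and it was -1.34 with the replicate block and -1.41 after the GC and length correction (adjusted p between 4.59e-30 and 1.9e-13 over the 5 alternatives run). In PC9 all HOXC6 libraries lay above all NEO libraries. Other list genes also differed between the lines in this test, in either direction. KLF6 was at -1.36 ± 0.21 (adjusted p = 4.86e-06), STUB1 at 0.89 ± 0.13 (adjusted p = 3.65e-06) and MT2A at 1.03 ± 0.17 (adjusted p = 2.33e-05), all by the edgeR interaction. The share of all genes that did so was not counted. The lists were chosen with earlier results of these data known, so these adjusted p values are no independent test.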

How the results depend on the processing

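The count of members called higher with HOXC6 was 3 in A549 and 2 in PC9. It was 1 in A549 with at least 10 counts in every library, and in PC9 it was 1 with DESeq2, with that minimum, and with the GC and length correction with or without the block, and 1 to 3 with a library left out. List genes called higher in A549 numbered 0, but 2 in the model over 12 libraries and with the GC and length correction with or without the block, 21 with no fold change criterion, and 0 to 2 with a library left out. Those called lower there numbered 5, but 1 with the correction, 0 with the correction and block, 23 with no fold change criterion, and 3 to 6 with a library left out. The 1 with the correction was SPINT1 (-1.08 ± 0.40), which was not called in the main fit, so all 5 were lost. In PC9 the 3 lower became 7 with library size only, 0 with the correction with or without the block, 13 with no fold change criterion, and 3 to 5 with a library left out, and the 3 higher became 1 with the correction with or without the block, 20 with no fold change criterion, and 2 to 4 with a library left out. Members lower in A549-NEO than PC9-NEO were 1, and 2 in the model over 12 libraries, where SCNN1G passed the filter. Members higher in A549-HOXC6 than PC9-HOXC6 were 2, and 5 with no fold change criterion, a description for SCNN1B and SGK1. The minimum of 10 counts removes genes from the test, and the other causes were not tested.

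Single values changed sign in 9 of 518 refits. These were SCNN1D in A549 without A549-NEO replicate 3 (0.101, with a range of -0.162 to 0.101 over the omissions), NR3C1 in A549 (0.127, and 0.121 with the block) and in PC9 (0.0642 and 0.0771) and SCNN1A in PC9 (-0.0800 and -0.0795) with the GC and length correction, and FKBP5 between HOXC6 libraries without A549-HOXC6 replicate 1 (-0.00746) or PC9-HOXC6 replicate 1 (-0.0192), with a range of -0.0192 to 0.301. The 45 values of the difference between the lines kept their side of the threshold, but not all kept their direction. That of NR3C1 was -0.009 ± 0.23 (SE) in the main fit and 0.11 ± 0.20 after the GC and length correction.

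Equal replicate numbers did not mark pairs: deviations from the group means correlated by -0.05 to 0.04 over the 12 equal-numbered pairs. With the replicate block the members called higher stayed at 3 in A549 and 2 in PC9. List genes called were 0 higher and 5 lower in A549, and 3 and 3 in PC9, where PIK3CA (-0.96) was no longer among them. Depth limits SCNN1G and NR3C2, which held at most 2 counts in A549-NEO.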
